A study of Homo sapiens with 2 samples.

Results

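The ribosomal protein genes of SNK6 cells were compared between romidepsin given with sildenafil and romidepsin alone. SNK6 is an established line of human NK/T-cell lymphoma, here cultured with 10% serum and 500 U/ml interleukin-2. The members were the genes whose array annotation carries an RPL, RPLP, RPS, MRPL or MRPS symbol with a number and at most 1 further letter, without pseudogenes. By this rule 122 of 14884 named genes were taken, of which 49 encode proteins of the cytosolic ribosome (31 of the large and 18 of the small subunit) and 73 proteins of the mitochondrial ribosome (48 large, 25 small). The first group received romidepsin, a drug that blocks class I histone deacetylases, plus a second drug that the label abbreviates and that was read as sildenafil, the only other drug in the treatment protocol (1 array). The second group received romidepsin alone (1 array). Both were exposed for 72 h, all cells thus carried the deacetylase inhibitor, and untreated cells and cells with sildenafil alone are not analysed here. The labels give no dose. With 1 array per group no test was possible, no value carries a replicate error, and culture, labelling or scanning of an array cannot be told apart from its treatment. Differences are given as log2 signal with sildenafil minus that without, so a negative value means lower with sildenafil.

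Ribosomes translate messenger RNA into protein, each with a large subunit that forms peptide bonds and a small subunit that decodes. The cytosolic ribosome serves nuclear transcripts, and most messages of its proteins begin with a pyrimidine tract (the terminal oligopyrimidine or TOP start) through which mTOR signalling and LARP1 control their translation. The mitochondrial ribosome makes the few proteins of the mitochondrial genome, which belong to the respiratory chain, while its own proteins are encoded in the nucleus and imported. Growing lymphoma cells make ribosomes at a high rate, and MYC promotes that production.

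The start-site sequences show what separates these gene classes apart from the proteins they encode, and they are given for the members furthest apart between the arrays in each subunit. RefSeq promoter windows of build GRCh38.p14 were found for 109 of the 122 genes (44 cytosolic, 65 mitochondrial), with 134 annotated starts in all because 18 genes have several. Each sequence holds 40 bases before and 20 bases from the first start listed for the gene. Capitals mark a run of C and T at the start, defined as a C at most 3 bases from the first transcribed base and followed by at least 4 further C or T on the coding strand. A gene with no capitals has no such run in this window. The cytosolic genes furthest apart with an entry were RPL32, RPL38 and RPL24 of the large and RPS16, RPS27L and RPS7 of the small subunit.
RPL32 (chr3:12841546-12841605, minus strand): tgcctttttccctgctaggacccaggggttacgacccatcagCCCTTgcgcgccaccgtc
RPL38 (chr17:74203638-74203697, plus strand): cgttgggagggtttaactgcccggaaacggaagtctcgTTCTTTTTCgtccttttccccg
RPL24 (chr3:101686699-101686758, minus strand): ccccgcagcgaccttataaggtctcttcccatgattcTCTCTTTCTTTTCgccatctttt
RPS16 (chr19:39435930-39435989, minus strand): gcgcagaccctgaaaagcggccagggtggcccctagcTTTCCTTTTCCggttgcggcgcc
RPS27L (chr15:63157458-63157517, minus strand): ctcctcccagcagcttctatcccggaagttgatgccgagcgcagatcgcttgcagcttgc
RPS7 (chr2:3575220-3575279, plus strand): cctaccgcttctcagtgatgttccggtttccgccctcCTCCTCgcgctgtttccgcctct
The mitochondrial genes chosen by the same rule were MRPL1, MRPL39 and MRPL32 of the large and MRPS31, MRPS10 and MRPS33 of the small subunit.
MRPL1 (chr4:77862790-77862849, plus strand): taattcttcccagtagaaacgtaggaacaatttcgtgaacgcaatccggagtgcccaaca
MRPL39 (chr21:25607462-25607521, minus strand): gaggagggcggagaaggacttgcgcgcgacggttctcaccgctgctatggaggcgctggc
MRPL32 (chr7:42932336-42932395, plus strand): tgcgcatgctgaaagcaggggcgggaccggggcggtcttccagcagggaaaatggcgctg
MRPS31 (chr13:40771171-40771230, minus strand): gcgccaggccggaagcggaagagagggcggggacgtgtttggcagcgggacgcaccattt
MRPS10 (chr6:42217842-42217901, minus strand): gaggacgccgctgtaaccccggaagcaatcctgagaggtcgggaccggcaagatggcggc
MRPS33 (chr7:141014933-141014992, minus strand): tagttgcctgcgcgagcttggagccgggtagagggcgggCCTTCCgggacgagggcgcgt
Of these cytosolic genes all but RPS27L carry the run, while of the mitochondrial ones only MRPS33 does.

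The same contrast held over the whole families. A pyrimidine start was found in 36 of 53 cytosolic windows (67.9%), in 8 of 81 mitochondrial windows (9.88%) and in 13.0% of all 35116 RefSeq promoter windows. The mitochondrial genes with one were MRPL14, MRPL41, MRPL44, MRPL45, MRPL53, MRPS2, MRPS27 and MRPS33. Other motifs were searched on both strands of the window, which spans 250 bases before and 50 after the start. The ETS-type motif CCGGAAG lay in 34.0% of cytosolic and 39.5% of mitochondrial windows, against 10.3% of all windows. AAGATGG, the core of the YY1 motif, which can overlap a start codon, lay in 32.1% of mitochondrial windows, 9.43% of cytosolic windows and 5.84% of all. The palindrome-like TCGCGAG lay in 20.8% of cytosolic windows, 3.70% of mitochondrial windows and 2.35% of all. TATAAA was rare in both families (5.66% cytosolic, 3.70% mitochondrial, 11.5% of all), and the MYC-type E-box CACGTG lay in 5.66%, 9.88% and 7.26%. The NRF1 core GCATGCG lay in 3.77% of cytosolic, 7.41% of mitochondrial and 3.91% of all windows. The shorter GGAAG, contained in CCGGAAG, lay in 92.5% of cytosolic windows, 81.5% of mitochondrial windows and 71.9% of all. These matches are descriptions of letters and not of bound sites.

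No ribosomal protein gene differed by 1.5-fold between the arrays, and most lay slightly lower with sildenafil. A gene was compared if at least 1 array gave it a log2 signal of 3.91, which is the median over every deposited value, and 121 of the 122 members met this. The exception was RPL10L, a testis-associated copy of RPL10, at 2.96 with sildenafil and 2.86 without. Of the 121, 0 differed by at least 1.5-fold, against 1.99% of all 10081 named genes past the same level (0.972% lower, 1.02% higher). The upper 5 of 10 classes of mean signal hold 110 of the 121. In those classes 99.5% of 5040 named genes were within 1.5-fold (19 lower and 5 higher past it). The count of 0 was thus near the background of that signal. In the cytosolic family 37 of 48 genes were lower with sildenafil (77.1%) and in the mitochondrial family 52 of 73 (71.2%), where 52.4% of all named genes were lower. The median difference was -0.08 for the cytosolic and -0.06 for the mitochondrial genes, beside -0.01 for all named genes. The medians of the families lay 0.02 apart, mitochondrial minus cytosolic, and the SD among genes was 0.14 for the mitochondrial and 0.11 for the cytosolic family. The difference between the families was not tested.

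**Figure D1:**
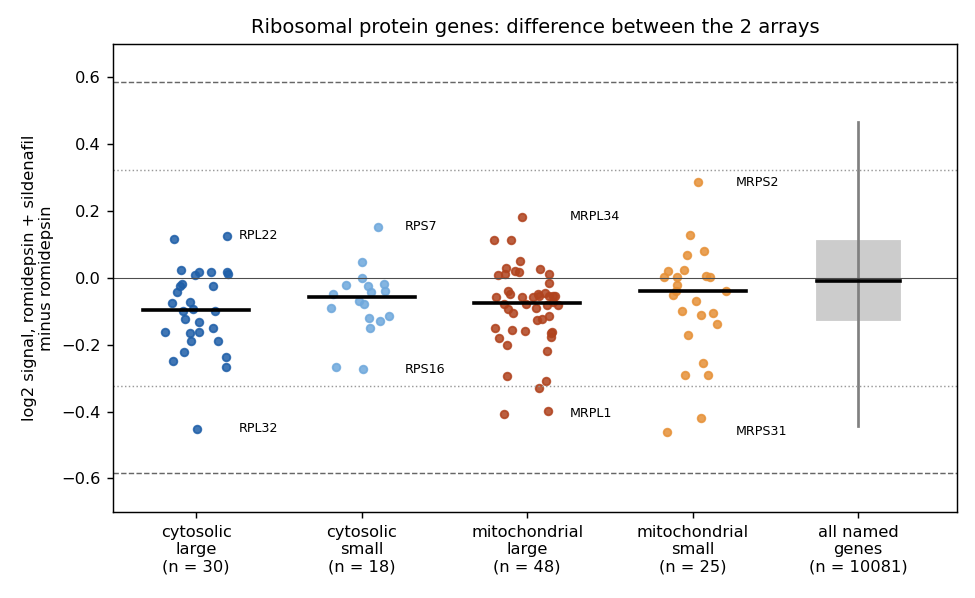
Difference in log2 signal (romidepsin plus sildenafil minus romidepsin) of each ribosomal protein gene by subunit, with black bars at the medians, and at the right all named genes (box, middle 50%; line, middle 95%; bar, median). Dotted lines mark a difference of 0.32 either way and dashed lines 1.5-fold; no member reaches the dashed lines, and the lowest gene is MRPS31 at -0.46.

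The balance of directions depended on how the arrays were scaled. When they were quantile normalized, 60.4% of the cytosolic and 58.9% of the mitochondrial genes were lower, against 44.4% of all named genes. When each array was centred on its median the shares were 91.7% and 87.7%, against 59.7%. Relative to the median of all named genes, the cytosolic median lay between -0.08 and -0.05 and the mitochondrial median between -0.06 and -0.03 over all processing alternatives run. The share of all named genes that were lower also varied with signal strength. Among the 5040 named genes in the upper 5 of 10 signal classes, which hold 44 of the cytosolic and 66 of the mitochondrial genes, 60.0% were lower, with a median of -0.03. In those classes the cytosolic median was -0.08, with 34 of 44 genes lower, and the mitochondrial median -0.07, with 48 of 66 lower. The part of signal strength in the difference of the families from other genes was not tested.

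**Figure D2:**
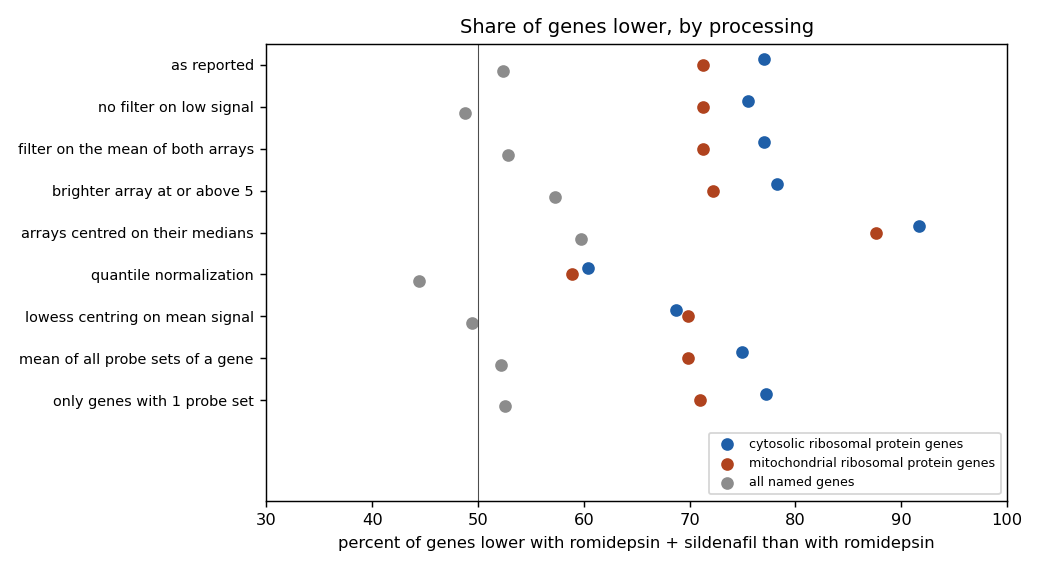
Percent of genes whose log2 signal was lower with romidepsin plus sildenafil than with romidepsin under each processing alternative, for the cytosolic (blue) and mitochondrial (red) ribosomal protein genes and all named genes (grey). In every alternative drawn both families lie to the right of all named genes, and quantile normalization gives the lowest shares, 60.4% and 58.9% against 44.4%.

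**Figure D3:**
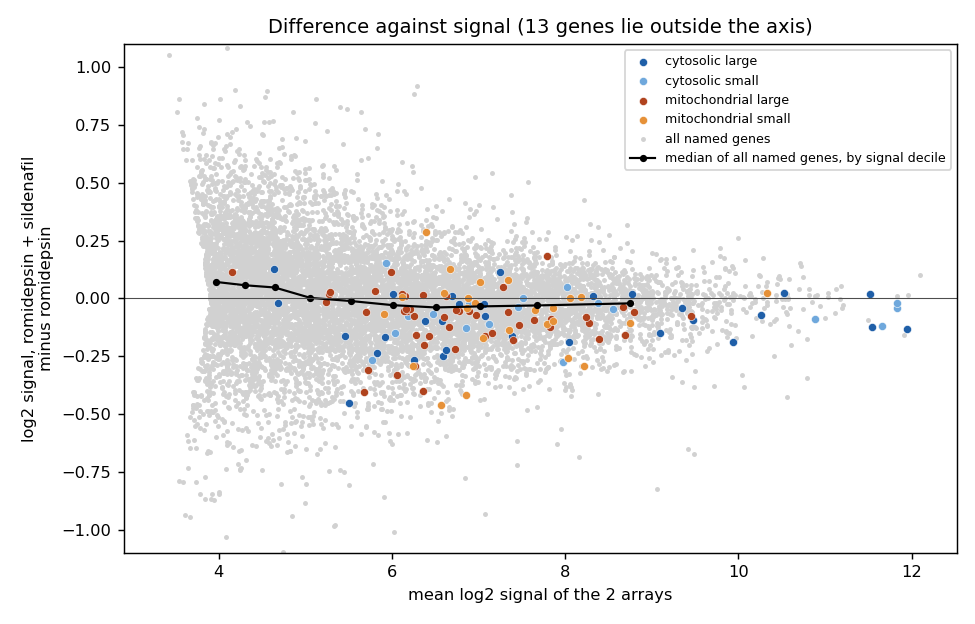
Difference in log2 signal (romidepsin plus sildenafil minus romidepsin) against the mean log2 signal of the 2 arrays, with members in colour by subunit, all named genes in grey and the black line through the medians of the 10 signal classes. The median runs between 0.07 in the dimmest class and -0.04 in the seventh, the spread narrows with signal, and 13 genes lie outside the axis.

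Most members lay close to equality, and those further apart were nearly all lower, the more frequent direction among bright genes too. At a smaller size, a log2 difference of at least 0.32, 6 members were lower with sildenafil and 0 higher. Among all named genes 12.7% were past that size (6.04% lower, 6.69% higher), so the count of lower members was near the background. Of the 5040 genes in the upper signal classes, which hold most members, 193 were lower and 62 higher by that size. The 6 lower members were RPL32, MRPL1, MRPL39, MRPL32, MRPS31 and MRPS28. At 1.1-fold, a size chosen after the values were seen, 34 of 121 members were lower and 3 higher (MRPS2, MRPL34 and RPS7). The background at that size was 23.1% lower and 21.3% higher over all named genes, and 1102 lower and 503 higher of the 5040 genes in the upper signal classes. Between the signal classes that hold most members, the SD of the differences among all named genes was 0.20 in the sixth class and 0.12 in the brightest.

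Among cytosolic large subunit proteins, the gene furthest apart was RPL32, with a log2 signal of 5.28 with sildenafil against 5.73 without (-0.45). RPL30 was at 6.12 with sildenafil and 6.39 without. RPL38, which in mice is needed for translation of a subset of Hox messages, was at 5.71 with sildenafil and 5.95 without. RPL24 and RPL9 followed, at -0.22 and -0.19. The SD of the differences among all named genes of similar signal was 0.22 for the class of RPL32 and 0.17 for that of RPL30. RPL27 differed by -0.19 (9.84 with sildenafil, 10.03 without) in the brightest class, where the SD was 0.12. In all, 22 of the 30 genes were lower, with a median of -0.10.

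Other large subunit genes lay nearer to equality, on either side. RPL11, which with the ribosomal 5S RNA can bind and inhibit MDM2, was at 10.54 with sildenafil and 10.51 without. RPL26, reported to promote translation of p53, was at 8.33 with sildenafil and 8.32 without. RPL22, a protein that the Epstein-Barr virus RNA EBER1 binds and whose gene is lost in some T-cell leukaemias, had the highest difference of the subunit at 0.13 (4.70 with sildenafil, 4.58 without). RPL35A, a gene mutated in some families with Diamond-Blackfan anaemia, was at 0.12. RPL10, which joins late in subunit maturation, was lower at -0.12 (11.47 with sildenafil, 11.60 without). RPL12, a protein of the stalk base, and RPL8 were each at 0.02. Apart from RPL39L and RPL10L, described with the paralogues and the signal level, the remaining large subunit genes lay between -0.16 (RPL28 and RPL31) and 0.02 (RPL14).

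The cytosolic small subunit had the fewest genes above zero, with 15 of 18 lower and a median of -0.06. RPS16 was at 7.84 with sildenafil and 8.11 without (-0.27), where genes of its signal class had an SD of 0.14. RPS14, whose loss contributes to the anaemia of the 5q- syndrome, was at 5.96 with sildenafil and 6.11 without (-0.15). RPS19, the gene most often mutated in Diamond-Blackfan anaemia, was at -0.09 (10.84 with sildenafil, 10.93 without). RPS15A, RPS28 and RPS29 differed by -0.13, -0.12 and -0.11. RPS6, the target of the S6 kinases, was at 8.37 with sildenafil and 8.39 without, and RPS3, at the entry of the messenger RNA channel, at 6.88 and 6.90. RPS23, a protein of the decoding centre, was at -0.04. RPS7 had the highest difference of the subunit at 0.15, with 6.01 with sildenafil and 5.85 without.

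**Figure D4:**
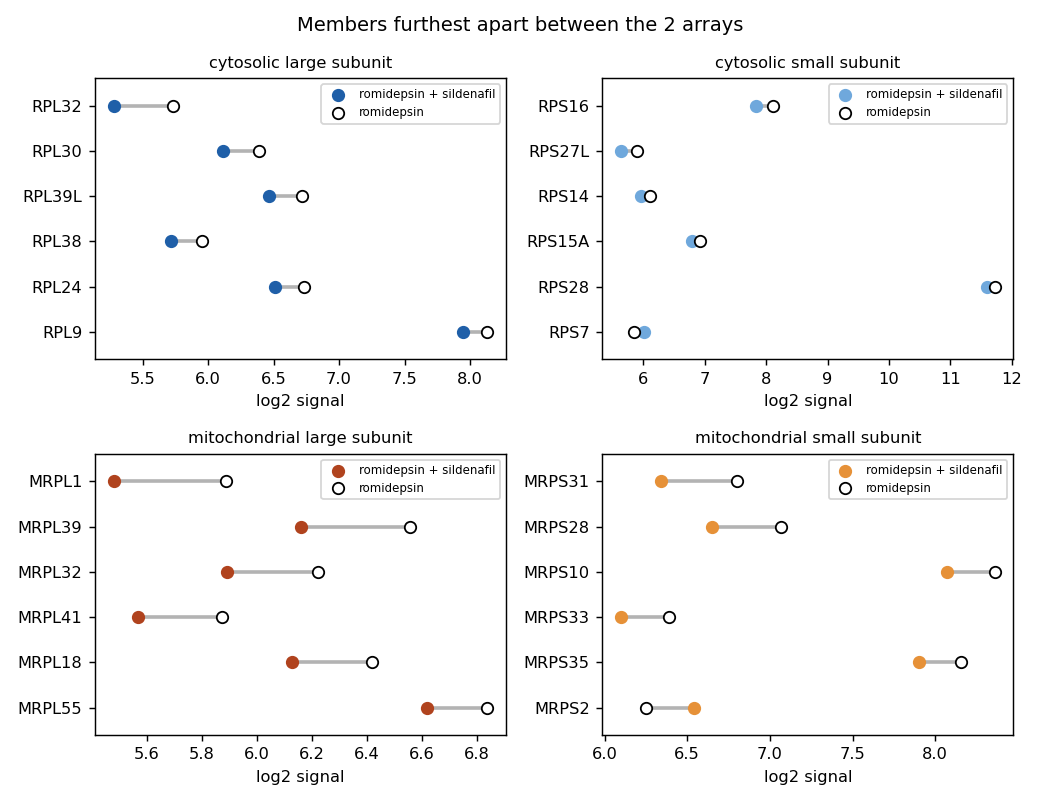
Log2 signals of the 6 members of each subunit with the largest absolute difference, with filled points for romidepsin plus sildenafil and open points for romidepsin; signal axes differ between panels and levels are not comparable between genes. The open point lies to the right for all but RPS7 and MRPS2.

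Paralogues of cytosolic proteins were set against the genes they resemble, a comparison chosen after the values were seen. RPL22L1, whose symbol lies outside the membership rule, was at 6.11 with sildenafil and 6.44 without (-0.32), while RPL22 was at 0.13. RPS27L, a copy of RPS27 that p53 can induce, was at 5.64 with sildenafil and 5.91 without (-0.27), while RPS27 was at -0.04. RPL39L, a copy with high expression in testis, was at -0.25 and RPL39 at -0.07. RPL26L1 was at -0.20 and RPL26 at 0.01. The paralogue was the lower of the pair in all 4 pairs with both genes past the signal level, and these differences were not tested. The pairs are unlike in signal. RPL22 lies in the third signal class, where the SD of differences among all named genes was 0.26. RPL26, RPL39 and RPS27 lie in the brightest class (SD 0.12), and their paralogues in the sixth and seventh (0.20 and 0.17). In the fifth pair RPL10L, below the signal level, was at 0.10 and RPL10 at -0.12, the opposite order. The muscle-associated RPL3L differed by -0.02.

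Mitochondrial large subunit genes were lower in 37 of 48 cases, with a median of -0.07. MRPL1, a protein of the L1 stalk next to the transfer RNA exit, was at 5.48 with sildenafil and 5.89 without (-0.41). MRPL39 was at 6.16 with sildenafil and 6.56 without (-0.40). MRPL32, which is cleaved by the mitochondrial AAA protease before it is built into the ribosome, was at 5.89 with sildenafil and 6.22 without (-0.33). These 3 genes were past a difference of 0.32, and MRPL41 (-0.31) and MRPL18 (-0.29) lay just short of it. MRPL55 and MRPL48 differed by -0.22 and -0.20. MRPL3 and MRPL44, both mutated in inherited cardiomyopathy with defective mitochondrial translation, were nearly equal, at -0.08 and -0.06. MRPL58, a peptidyl-tRNA hydrolase that became part of the ribosome, was at -0.15 (7.09 with sildenafil, 7.23 without). MRPL11, of the stalk base, was at 0.05 and MRPL10, of the stalk, at -0.05. MRPL34 was the highest of the subunit, at 7.88 with sildenafil and 7.70 without (0.18), followed by MRPL23 and MRPL14 at 0.11 each.

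The mitochondrial small subunit had both the lowest and the highest difference of all members. MRPS31 was at 6.34 with sildenafil and 6.80 without (-0.46), and MRPS28 at 6.65 with sildenafil and 7.07 without (-0.42). MRPS10 (-0.29), MRPS33 (-0.29) and MRPS35 (-0.26) came next. MRPS10, short of a difference of 0.32, was at 8.07 with sildenafil and 8.36 without. It lies in the brightest class, where the SD of differences among named genes was 0.12. At the other end, MRPS2 was at 6.54 with sildenafil and 6.25 without (0.29). Between them the subunit was nearly balanced, with 15 of 25 genes lower and a median of -0.04. MRPS12, a protein of the decoding centre, was at -0.07 (5.87 with sildenafil, 5.94 without). MRPS16 and MRPS22, in which mutations cause mitochondrial disease, were at -0.04 and 0.02. MRPS18B was at -0.11, and its relative MRPS18A at 0.00. In structures MRPS18A and MRPS30, which was also at 0.00, sit in the large subunit despite their names. MRPS27, a pentatricopeptide repeat protein, was at 0.00.

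The mitochondrial ribosome holds proteins with bacterial relatives and proteins added in mitochondria, and a split by this origin was made after the values were seen. Members numbered up to MRPL36 and MRPS21, the numbers that follow bacterial ribosomal proteins, had a median of -0.05 over 41 genes, with 28 lower. The 32 mitochondria-specific members had a median of -0.10, with 24 lower. At 1.1-fold, 13 mitochondria-specific members were lower and 0 higher, beside 7 lower and 2 higher with bacterial relatives, where 23.1% of all named genes were lower and 21.3% higher at that size. Of the 5040 named genes in the upper signal classes, 1102 were lower and 503 higher at that size. The SD among genes was 0.14 for mitochondria-specific members and 0.13 for those with bacterial relatives, and the difference between the classes was not tested.

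Medians were compared between members with and without these start sequences, as a description with no test. Cytosolic genes with a pyrimidine start had a median of -0.07 (25 of 35 lower) and the 8 without one a median of -0.09 (8 lower). Mitochondrial genes with a pyrimidine start had a median of -0.08 (5 of 8 lower) and the 57 without one -0.07 (42 lower). Cytosolic genes with CCGGAAG had a median of -0.10 over 14 genes and those without it -0.07 over 29. Mitochondrial genes with CCGGAAG had a median of -0.06 over 29 genes and those without it -0.07 over 36. RPL32, with the lowest cytosolic difference, and RPS7, with the highest, both carry the run printed above, though that of RPL32 begins after the first base.

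For 8 members the array had more than 1 probe set, and these gave a view of how far sets of 1 gene agreed. Both probe sets of MRPS2 were higher with sildenafil, by 0.29 and 0.28, the second at 5.43 with sildenafil and 5.15 without. Those of RPL39 (-0.07 and -0.02) and MRPS16 (-0.04 and -0.01) had the same sign. Those of RPL19 did not, at -0.09 and 0.12, nor those of RPS18, at 0.05 and -0.19. MRPL44 had sets at -0.06 and 0.19, the second below the signal level on both arrays (3.37 with sildenafil, 3.18 without). RPL41 had 5 probe sets, at -0.13, 0.17, 0.13, 0.09 and -0.02. The 7 probe sets of MRPS18B held identical values and counted as 1. For RPL19, RPS18, RPL41 and MRPL44 the disagreement between probe sets was as large as most of the differences described here. For MRPS2, RPL39 and MRPS16 it was small.

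Processed pseudogenes limit how far a signal can be assigned to 1 gene. RefSeq names at least 1 pseudogene for 45 of the 49 cytosolic genes (median 13, up to 64 for RPL31) and for 38 of the 73 mitochondrial genes (median 1, up to 9 for MRPS21). RPL32 has 37 by this count. The probe sets of cytosolic members may therefore include RNA from related copies, whose part in these values was not tested. The set used for RPS18 (chromosome 6) has an identifier close to that for RPL24 (chromosome 3). Those used for RPS27 (chromosome 1) and RPS28 (chromosome 19) lie close to sets for genes of chromosomes 12 and 11. Whether these sets report the named genes was not tested, so the RPS27 value set against RPS27L is uncertain.

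Other genes of ribosome production and translation, taken from lists of known components, were also all within 1.5-fold, as were 98.0% of all named genes. The lists were covered only in part, so their medians describe the genes analysed here. Of all named genes 52.4%, or 60.0% in the upper signal classes, were lower. Of 8 genes listed for the mitochondrial ribosome under other symbols 4 were measured, with the ribosomal proteins CHCHD1 at -0.28, PTCD3 at -0.23 and DAP3 at -0.19. The fourth was not a ribosomal protein but the insertase OXA1L, which docks the mitochondrial ribosome at the inner membrane, at 0.18. Of 10 mitochondrial translation factors analysed, from 15 listed, 9 were lower, with a median of -0.16. Among them MTFMT, which formylates the initiator transfer RNA, was at -0.21 and the initiation factor MTIF3 at -0.20, with MTRFR and TACO1 also at -0.20. None of the 10 was past a difference of 0.32. All 5 genes analysed of the 13 listed for mitochondrial transcription and its regulators were lower, with a median of -0.19. They included MTERF2 (-0.25), the transcription factor NRF1 (-0.22), ESRRA (-0.19) and MTERF1 (-0.16). The 22 assembly factors of the mitochondrial ribosome analysed, from 26 listed, had a median of -0.04, with 14 lower. Past a difference of 0.32, 1 was lower and 0 higher, against 6.04% and 6.69% of all named genes. That gene was NOA1, a GTPase, at 9.07 with sildenafil and 9.41 without (-0.34). RBFA was at -0.27, RCC1L at -0.26 and MRM1, which methylates the large ribosomal RNA, at -0.25. The mitochondrial aminoacyl-tRNA synthetases are not analysed here.

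On the cytosolic side, 49 of 68 listed ribosome biogenesis factors were analysed and had a median of -0.05, with 31 lower and 18 higher. NOC2L, also known as an inhibitor of histone acetyltransferases, was at -0.42 and RIOK2, a kinase of late small subunit maturation, at -0.33. These 2 were past a difference of 0.32 and 0 factors were higher by that size. Among all named genes 6.04% were lower and 6.69% higher by that size, so the count was not above the background. NHP2, of the pseudouridylation complex, was at -0.28 and RRP1 at -0.25. From the RNA polymerase I machinery only 3 of 16 listed genes were analysed. RRN3, which recruits RNA polymerase I, was at 7.03 with sildenafil and 7.35 without (-0.32), just past a difference of 0.32. POLR1F and POLR1H were each at -0.06. Only 8 of 34 listed initiation factors were analysed, with a median of -0.03, the cap-binding protein EIF4E at -0.25 and EIF5 at 0.25. EIF1 was at 0.10 and EIF5B at -0.09. Of 8 elongation and termination factors analysed, from 13 listed, 4 were lower. EEF1G was at -0.18, EEF1A1 at -0.14, EEF1D at 0.17 and the kinase EEF2K at 0.13. The 12 genes of growth signalling to the ribosome analysed, from 20 listed, had a median of 0.02. SESN2, an inhibitor of mTORC1, was at -0.29 and the mTOR brake TSC2 at 0.25. MXD1, an antagonist of MYC, was at -0.24 and DDIT4, another inhibitor of mTORC1, at 0.17. The remaining relatives of cytosolic proteins were RPL7L1 at -0.09, FAU, which encodes a ubiquitin-like protein fused to a ribosomal protein, at -0.03 and RPL36AL, a copy of RPL36A, at 0.03.

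**Figure D5:**
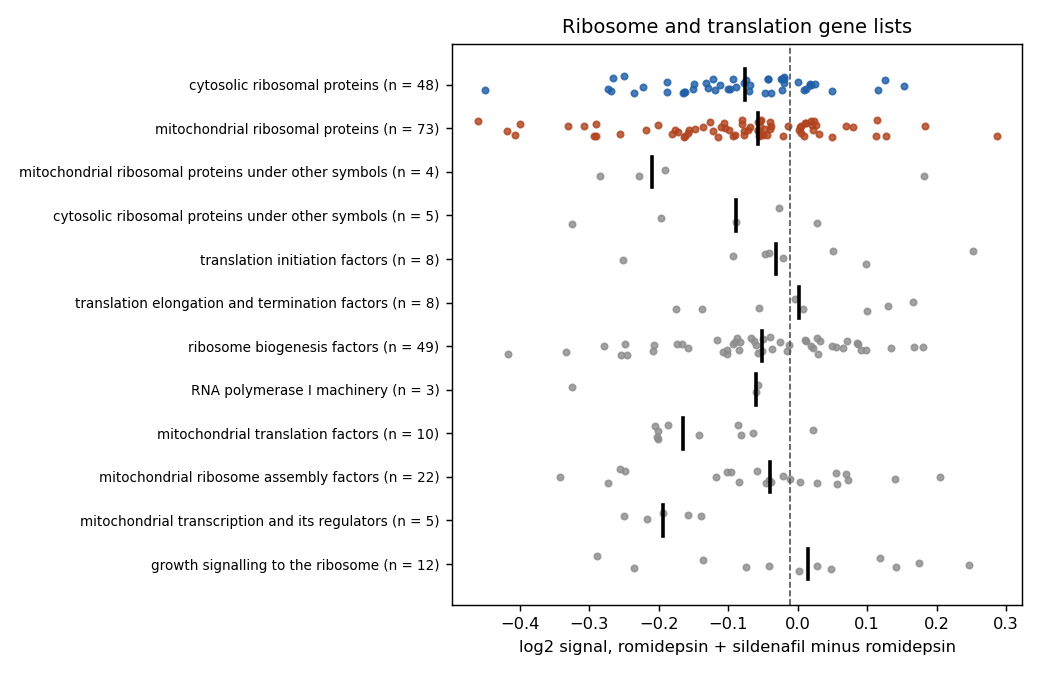
Difference in log2 signal (romidepsin plus sildenafil minus romidepsin) of each gene in the ribosomal protein families and in the lists of ribosome production and translation, with black bars at the medians and a dashed line at the median of all named genes (-0.01). The cytosolic and mitochondrial families centre at -0.08 and -0.06, and all genes shown lie between -0.46 and 0.29.

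The cell type was checked by its markers. The brightest NK and cytotoxic markers were NCAM1 (CD56), PRF1, NKG7, CD2 and CD247. They lay between 6.54 and 8.81 with sildenafil and between 6.63 and 8.83 without. Dimmer ones were NCR1 (6.22 with sildenafil, 6.23 without), GZMM (5.43 and 5.25), CD7 (5.21 and 5.15) and NCR3 (4.69 and 4.70). In all, 12 of 13 measured NK and cytotoxic markers passed the signal level, with a median difference of 0.03. The exception was EOMES. GNLY, at 3.92 with sildenafil and 3.82 without, barely passed. TBX21 (5.09 with sildenafil, 4.62 without) and NCR2 (5.16 with sildenafil, 4.79 without) were higher by more than 0.32, as were 6.69% of all named genes. Of markers of other cells, 7 of 8 T cell genes, 3 of 3 B cell genes (PAX5, BLK and CD22), 3 of 6 monocyte and macrophage genes and 3 of 5 fibroblast and epithelial genes passed, with median differences of 0.00, -0.09, -0.11 and -0.26. CD22 (7.37 with sildenafil, 7.46 without), CD68 (6.61 with sildenafil, 6.72 without) and KRT18 (7.38 with sildenafil, 7.04 without) had clear signals on both arrays. So did ZAP70 of the T cell list (6.94 with sildenafil, 7.01 without). The monocyte genes CD14, LYZ and CD163 and the fibroblast and epithelial genes DCN and EPCAM were below the level on both arrays. The part of other cells in the ribosomal values was not tested, and in such a bulk sample fewer cells in a given state and less RNA per cell cannot be told apart.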

How the data were processed

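Total RNA of 1 sample per group was amplified with a whole-transcript kit and hybridised to 1 array each, per the labels' protocols. The deposited table holds log2 signals for 53617 probe sets, with nearly the same distribution on both arrays (medians 3.92 with sildenafil and 3.89 without, sorted values at most 0.15 apart). The log base is unstated and was taken as 2 from the maximum of 13.05, which exceeds the natural log of a 16-bit ceiling (11.1). How the authors corrected background and normalized is not given in the sources used here. Any scaling of the arrays to a common distribution would remove changes shared by most transcripts. No detection calls were used here, and the number of arrays limits the precision.

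Genes were named from the platform annotation (16098 probe sets, 14884 genes), and all 122 member symbols match current RefSeq. The brightest probe set stood for a gene. Named members include those furthest apart in each subunit (up to 6), those past a log2 difference of 0.32, those with several probe sets and a fixed set. Of the fixed set RPLP0, RPLP1, RPLP2, RPL3, RPL4, RPL5, MRPL12 and MRPS18C are not analysed here. Other members, among them RPL12, RPL8, RPS23, MRPL3, MRPL58, MRPL10 and MRPS22, were named outside these rules. From each list of ribosome production and translation up to 4 genes furthest apart are named, with RPL36AL in addition. Members and lists were chosen with earlier results of these data known. Signal classes are deciles of the mean signal of genes past the filter. Computations were tested on simulated data and used pandas 2.3.3 and numpy 2.4.6 under Python 3.11.15, with scipy 1.17.1 for intervals, statsmodels 0.14.6 for lowess and matplotlib 3.10.9 for plots.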

Additional observations from a re-analysis of the deposited data

How the results depend on the processing

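Alternatives changed the filter, the scaling between arrays, the handling of several probe sets and the size threshold, and 1 chosen after seeing the data left out the paralogues RPL3L, RPL10L, RPL39L and RPS27L. Over these, the cytosolic median difference ran between -0.10 and -0.03, the mitochondrial median between -0.09 and -0.01, and mitochondrial minus cytosolic between 0.01 and 0.02, none changing sign. Medians were called moved beyond 0.05, shares beyond the exact 95% binomial interval and counts beyond 1.5 times. The interval treats genes of the same 2 arrays as independent, so it served as a yardstick only. The limit of 0.05 is close to the mitochondrial median itself (-0.06), so few changes of that median could pass it. Only the scaling moved the shares of genes lower with sildenafil, to 91.7% (cytosolic) and 87.7% (mitochondrial) with arrays centred on their medians and to 60.4% and 58.9% with quantile normalization. At a log2 difference of 0.32, 1 cytosolic and 5 mitochondrial genes were past the threshold, and at 1.5-fold 0 under every filter, scaling and probe set rule run. Lowess centring (span 0.3) left 68.8% and 69.9% lower, with medians of -0.05 and -0.03. No paired analysis was possible because each group has 1 array and no test was run.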

Other observations

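Probe sets named for ribosomal protein pseudogenes were also measured. Of 28 named pseudogenes 20 passed the signal level, 10 of them lower and 10 higher with sildenafil, with a median of -0.03. At a log2 difference of at least 0.32, 7 were lower and 2 higher, against 6.04% and 6.69% of all named genes. Of the 20, 13 lie in the lower 5 signal classes, where 11.7% to 32.6% of all named genes were past that size either way, while 110 of the 121 members lie in the upper 5. RPL21P28 was the only one past 1.5-fold, at 9.15 with sildenafil and 9.82 without, 1.59-fold lower with sildenafil. RPL13AP20 was at 10.34 with sildenafil and 10.77 without (-0.43). Both lie in the brightest signal class, where the SD of differences is 0.12. RPL21 and RPL13A, the genes they derive from, are not analysed here. RPL13P5 was at -0.37, RPL23AP7 at -0.45, RPS10P7 at -0.43 and RPS15AP10 at -0.33. RPL23AP82 (0.45) and RPSAP52 (0.48) were the higher ones.

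In both mitochondrial families with a pseudogene past the signal level, the copy and its parent gene were lower. MRPS31P5 was at 4.72 with sildenafil and 4.92 without (-0.20), and MRPS31 at -0.46. MRPL45P2 was at 5.15 with sildenafil and 5.57 without (-0.42), and MRPL45 at -0.18. Cytosolic pairs went both ways. RPL32P3 (0.12) and RPL32 (-0.45) differed in opposite directions, as did RPS26P11 (0.05) and RPS26 (-0.07). RPL19P12 (-0.10) and RPL19 (-0.09, brightest set) were both lower. So were RPL29P2 (-0.09) and RPL29 (-0.02), and RPS15AP10 (-0.33) and RPS15A (-0.13). The antisense and divergent transcripts MRPL20-AS1, MRPL23-AS1, RPL26L1-AS1 and RPL34-DT were at 0.13, -0.09, -0.05 and -0.07. These genes were picked by name after the values were seen.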
